A study of Rattus norvegicus with 11 samples.

Results

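The genes of the interleukin 23, 12, 27 and 17 axis were followed across rat calvarial defects that held PLA, CTS, GelMA or no scaffold. The set comprised 9 of the 23781 genes in the expression tables. These were the cytokine subunits Il23a, Il12b, Il12a, Ebi3 and Il27, the receptor Il23r, the ligands Il17a and Il17f, and the receptor Il17ra. They were found by gene symbol, and the set was chosen by the authors' PLA results for Il23a and Ebi3, so the levels in PLA are a description and carry no test. All 9 passed the filter on low counts, although Il27 reached at most 23 counts in a library.

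The RNA-seq libraries came from cells labelled Cd45- that were sorted after collagenase digestion of tissue grown in suture-bony defects of the coronal suture, taken 6 weeks after surgery from male SD rats labelled 4 months old. PLA (an electrospun poly(L-lactide) membrane) had 2 libraries, and CTS (a chitosan hydrogel), GelMA (a gelatin methacryloyl hydrogel) and NC (the same defect without a scaffold) had 3 each. No genetic change or drug was given to any group, and all groups shared the defect, the sort and the fixation of the cells before it. How many rats gave 1 library was not stated, so p-values measure the spread between these samples, which may be technical.

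The IL-12 family consists of paired subunits that share chains. IL-23 joins p19 (Il23a) to p40 (Il12b), IL-12 joins p35 (Il12a) to the same p40, and IL-27 joins p28 (Il27) to EBI3, which also pairs with p35 in IL-35. Dendritic cells and macrophages are the main sources of IL-23, which acts through IL-23R and IL-12Rβ1 on lymphocytes and sustains those that make IL-17A and IL-17F. Both IL-17 ligands signal through IL-17RA with IL-17RC on stromal, epithelial and myeloid cells, where they raise chemokines, matrix-degrading enzymes and RANKL, the cytokine that drives osteoclast formation.

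Total counts per library ran from 22509898 to 31290849, and 18049 genes passed the filter. Ptprc, which encodes Cd45, was present in every library in spite of the label, at 1020 and 1055 CPM in PLA, 1036 to 1272 CPM in CTS, 1138 to 1347 CPM in GelMA and 336 to 1460 CPM in NC. NC replicate 2 stood apart from its group: it was the NC library with 336 CPM of Ptprc, and fibrillar collagen genes (Col1a1, Col1a2, Col3a1) took 16.9% of its counts, compared with 0.824% in replicate 1 and 2.75% in replicate 3. Results that rest on it are given with and without it. In sorted bulk cells, more cells of a type and more RNA per cell cannot be told apart.

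Start regions of Il23a, Il23r, Il17a and Il17f are shown as the 250 bases before the start, 5′ to 3′ on the gene's strand, from RefSeq on GRCr8. The expression tables were made on mRatBN7.2. Ebi3 had no entry and could not be shown. RefSeq entries matched 6 of the 9 genes (Il23a, Il12a, Il27, Il23r, Il17a and Il17f). Capitals mark matches on either strand to TATAAA (the TATA box), AGGTCA (a nuclear receptor half-site) and GGAAA (the NFAT core).
Il23a (chr7:1308435-1308684, minus strand): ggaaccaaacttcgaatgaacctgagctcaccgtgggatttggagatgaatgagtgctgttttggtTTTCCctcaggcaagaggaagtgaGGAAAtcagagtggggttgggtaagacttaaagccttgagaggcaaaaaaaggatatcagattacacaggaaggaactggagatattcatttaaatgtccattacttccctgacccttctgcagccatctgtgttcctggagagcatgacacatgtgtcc
Il23r (chr4:98003760-98004009, minus strand): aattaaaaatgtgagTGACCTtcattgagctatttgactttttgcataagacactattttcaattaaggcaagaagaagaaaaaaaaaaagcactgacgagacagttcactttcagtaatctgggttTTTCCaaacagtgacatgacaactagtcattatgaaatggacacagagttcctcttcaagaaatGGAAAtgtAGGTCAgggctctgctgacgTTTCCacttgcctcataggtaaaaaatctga
Il17a (chr9:30640594-30640843, plus strand): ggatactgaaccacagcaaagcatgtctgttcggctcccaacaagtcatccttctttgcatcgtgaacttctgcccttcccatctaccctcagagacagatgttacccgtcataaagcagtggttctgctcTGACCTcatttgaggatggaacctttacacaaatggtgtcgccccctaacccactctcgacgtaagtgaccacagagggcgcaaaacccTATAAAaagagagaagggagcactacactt
Il17f (chr9:30697919-30698168, minus strand): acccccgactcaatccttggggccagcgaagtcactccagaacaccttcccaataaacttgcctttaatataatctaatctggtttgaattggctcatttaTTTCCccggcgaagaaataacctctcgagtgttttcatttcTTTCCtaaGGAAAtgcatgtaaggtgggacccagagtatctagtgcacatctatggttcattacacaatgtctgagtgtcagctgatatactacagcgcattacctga
Il17a held TATAAA with its first base 30 bases before the start, and Il12a, not shown, held it at 47 bases. TATAAA was present in 13.1% of the 27457 rat start regions of this length. The half-site AGGTCA, or its reverse complement, lay 119 bases before the start of Il17a, and the nearer of 2 in Il23r lay 51 bases before its start; it was present in 13.7% of all start regions. GGAAA occurred 2 times in Il23a, 3 times in Il17f and 3 times in Il23r, and in 56.7% of all start regions. The searches for TGANTCA (AP-1), TTCNNNGAA (STAT) and the κB consensus found no match in the 6 windows, and these occurred in 6.36%, 7.52% and 6.41% of all start regions. No match overlapped another, and a match is a description of letters, not of a factor's binding.

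Il23a and Ebi3 were the best expressed members in PLA. Il23a stood at 784 and 932 FPKM in PLA, 12.2, 10.6 and 9.12 FPKM in CTS, 42.6, 99.6 and 175 FPKM in GelMA and 3.69, 2.03 and 7.90 FPKM in NC (FPKM is the count scaled to gene length and library total). The order of the levels was PLA, GelMA, CTS, NC, and no library of a group overlapped those of another. By level, Il23a ranked 84th and 66th of all genes in the PLA libraries, against 5825th to 9395th in NC. On the log2 scale of the fit, Il23a was higher in PLA by 7.96 (SE 0.66) against NC, 3.55 (SE 0.55) against GelMA and 6.81 (SE 0.63) against CTS.

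Ebi3 had 657 and 758 FPKM in PLA, 52.9, 35.9 and 25.1 FPKM in CTS, 57.8, 88.1 and 116 FPKM in GelMA and 33.8, 9.25 and 36.3 FPKM in NC. PLA lay above every other library and GelMA above every CTS and NC library, while CTS and NC overlapped. Its log2 fold change in PLA was 5.15 (SE 0.51) against NC, 3.55 (SE 0.48) against GelMA and 4.70 (SE 0.50) against CTS. In NC, Ebi3 was at 9.25 FPKM or more in every library and Il23a at 7.90 FPKM or less.

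**Figure D1:**
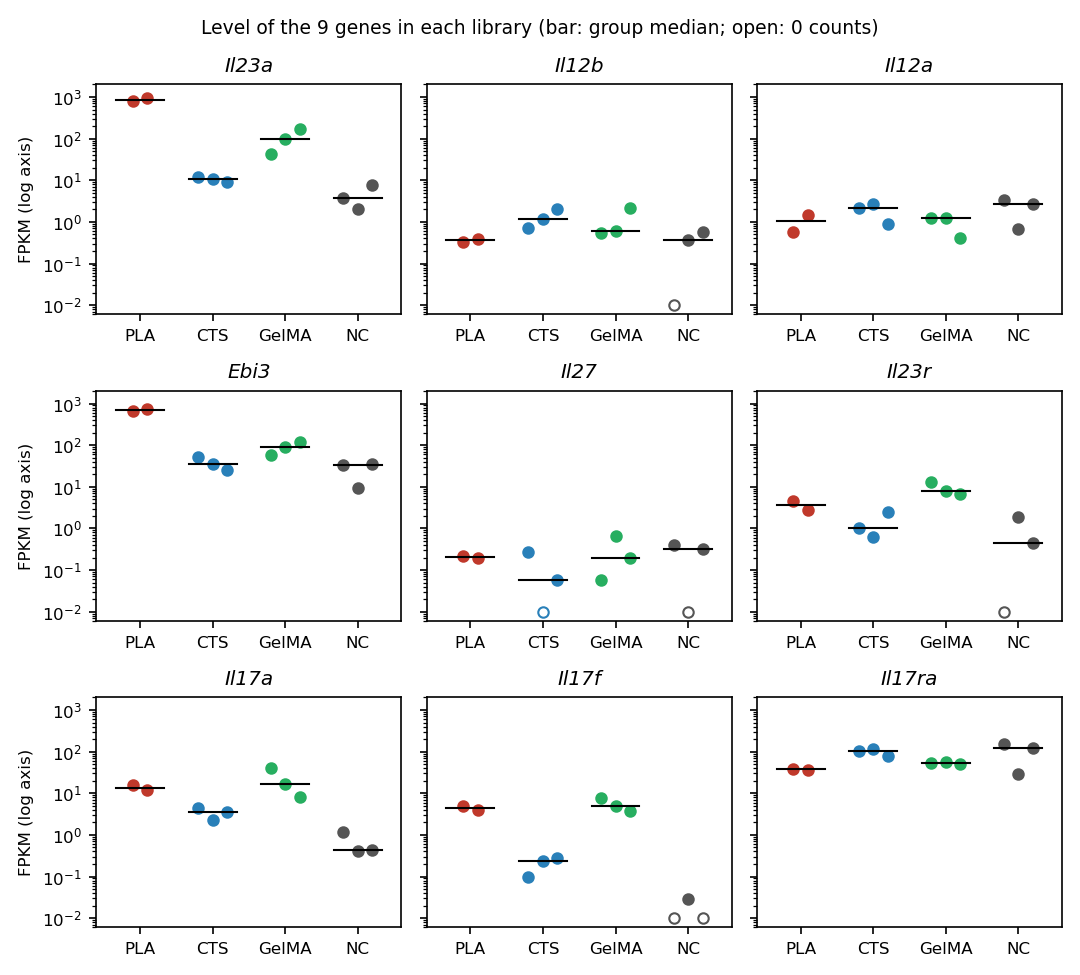
FPKM of the 9 genes (log axis) by group, in which each point is a library, the bar is the group median and open points at the foot are libraries with 0 counts. Il23a and Ebi3 reach 784 to 932 and 657 to 758 FPKM in PLA, while Il12b, Il12a and Il27 stay at or below 3.32 FPKM in every library.

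The chains that would complete these cytokines stayed low. Il12b, the p40 chain of IL-23 and IL-12, had 26 and 30 counts in PLA (0.329 and 0.390 FPKM), 57, 89 and 149 counts in CTS (0.714, 1.20 and 2.06 FPKM), 40, 46 and 167 counts in GelMA (0.539, 0.610 and 2.14 FPKM) and 0, 26 and 35 counts in NC (0, 0.370 and 0.572 FPKM). In FPKM both PLA libraries thus lay below every CTS and GelMA library and within the range of NC. After TMM scaling PLA replicate 2 lay above GelMA replicate 1, so PLA and GelMA overlapped. Both PLA libraries stayed below every CTS library on that scale. The count of 0 in NC replicate 1 allows up to 3 counts.

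Il12a, the p35 chain of IL-12 and IL-35, had 0.577 and 1.48 FPKM in PLA, 2.11, 2.68 and 0.906 FPKM in CTS, 1.24, 1.25 and 0.409 FPKM in GelMA and 3.32, 0.688 and 2.74 FPKM in NC. All 4 groups overlapped. Il27, the p28 chain, had 8 and 7 counts in PLA, 10, 0 and 2 counts in CTS, 2, 23 and 7 counts in GelMA and 11, 0 and 9 counts in NC, so its level could not be separated between groups at this depth.

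Levels per length allow the partners to be set side by side within a library. Il23a exceeded Il12b by 2379 and 2390 times in PLA, 17.1, 8.82 and 4.43 times in CTS and 79.2, 163 and 81.6 times in GelMA. In NC the ratio was 5.48 and 13.8 in replicates 2 and 3, and 70.6 in replicate 1 with Il12b set at 3 counts. The PLA ratios lay above all others, and Il23a and Il12b were both at 1 FPKM or more in 3 of 11 libraries, namely CTS replicates 2 and 3 and GelMA replicate 3. Both PLA libraries were among those in which p40 stayed below that level.

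Ebi3 exceeded Il27 by 3025 and 3889 times in PLA, and the ratio was 197 and 425 in CTS replicates 1 and 3, 1002, 135 and 606 in GelMA and 82.3 and 115 in NC replicates 1 and 3. With Il27 set at 3 counts where it was 0, the ratio was 414 in CTS replicate 2 and 101 in NC replicate 2. In 0 of 11 libraries were both chains of IL-27 at 1 FPKM or more. The chains of IL-35, Ebi3 and Il12a, were both at 1 FPKM or more in 7 libraries, 1 of them PLA (replicate 2), with ratios of 1138 and 512 in PLA, 13.4 to 27.7 in CTS, 46.6 to 285 in GelMA and 10.2 to 13.4 in NC. Il12a and Il12b, the chains of IL-12, were both at that level in 1 library, CTS replicate 2. The gene pair that was high together in PLA was therefore Il23a with Ebi3, which are chains of different cytokines; a pairing of p19 with EBI3 has been proposed in mice.

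**Figure D2:**
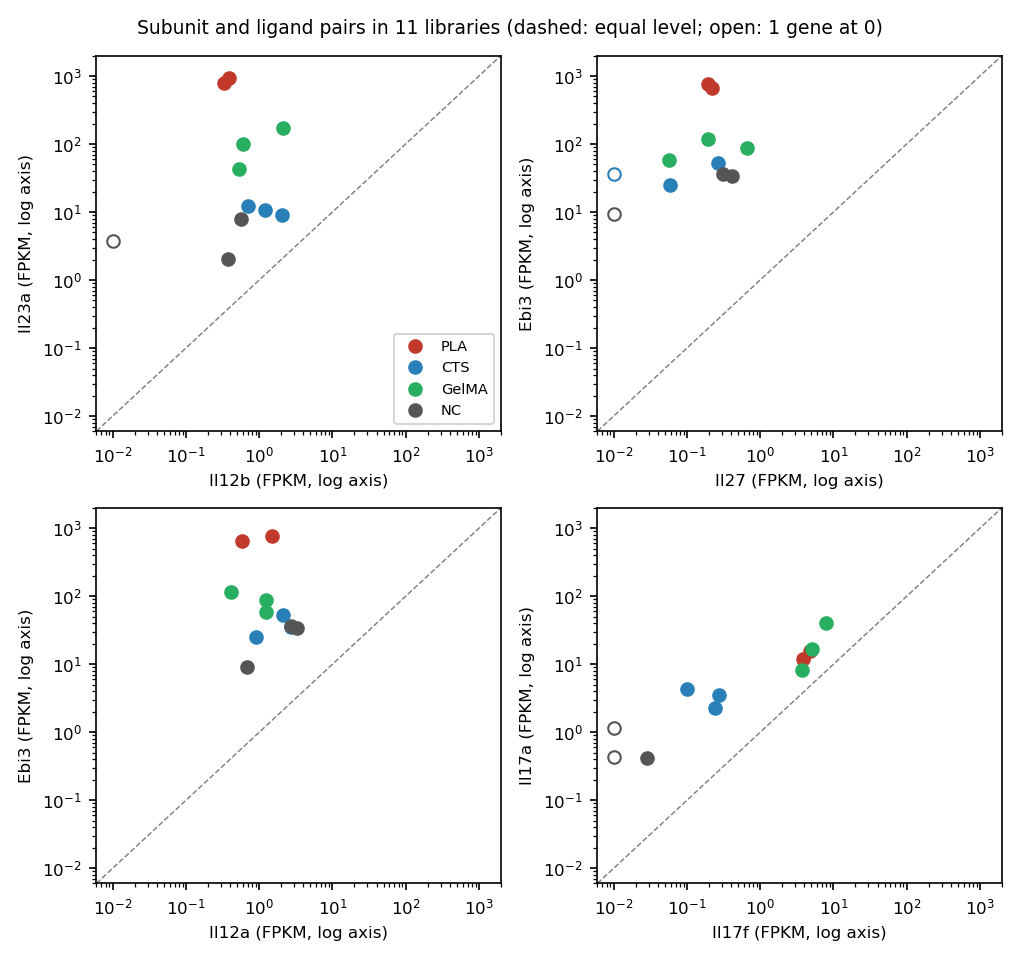
FPKM of 1 gene of each pair against the other (log axes), 1 point for each of the 11 libraries, with open points where a gene had 0 counts and the dashed line at equal level. Il23a over Il12b is 2379 and 2390 in PLA and at most 163 in the other groups, while the Il17a and Il17f points of PLA and GelMA lie within 5.16 times of it.

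The IL-17 ligands followed another order. Il17a had 15.4 and 11.9 FPKM in PLA, 4.39, 2.25 and 3.57 FPKM in CTS, 40.4, 16.6 and 8.26 FPKM in GelMA and 1.16, 0.413 and 0.437 FPKM in NC. PLA lay within the range of GelMA, CTS lay below both, and NC lay below CTS. In PLA its log2 fold change was 4.70 (SE 0.66) against NC, 2.48 (SE 0.60) against CTS and -0.13 (SE 0.59) against GelMA, beside 3.55 for Il23a in that last comparison. The value against GelMA was 0.64 without GelMA replicate 1 and 0.04 without PLA replicate 2.

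Il17f had 194 and 151 counts in PLA (4.86 and 3.88 FPKM), 4, 9 and 10 counts in CTS, 294, 193 and 147 counts in GelMA (7.83, 5.06 and 3.73 FPKM) and 0, 1 and 0 counts in NC. Against GelMA its log2 fold change in PLA was 0.20 (SE 0.53), which turned to -0.34 with scaling by library size alone and to -0.04 without GelMA replicate 3. PLA and GelMA overlapped and every one of their libraries lay above CTS and NC. Over the pooled counts, the ratio to NC was 418 in PLA (exact 95% counting interval 74.5 to 16560), 526 in GelMA (94.0 to 20804) and 19.2 in CTS (3.12 to 790), where the interval covers counting error only. Il17a exceeded Il17f by 3.17 and 3.06 times in PLA, 44.3, 9.40 and 13.1 times in CTS and 5.16, 3.28 and 2.22 times in GelMA, so Il17f was the lesser ligand in all 8 scaffold libraries. Both ligands were at 1 FPKM or more in 5 libraries, which were those of PLA and GelMA.

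Within GelMA the cytokine and the ligands did not run in parallel. GelMA replicate 3 had the highest Il23a, Ebi3 and Il12b of its group and the lowest Il17a, Il17f and Il23r, and replicate 1 had the highest Il17a, Il17f and Il23r and the lowest Il23a, Ebi3 and Il12b. Cd3e, a chain of the T cell receptor complex, was 97.9, 86.4 and 98.3 FPKM in GelMA replicates 1, 2 and 3. Genes listed below for type 17 lymphocytes ran both ways. Ccr6 (2269, 1434 and 1350 counts), Rora and Maf were highest in replicate 1. Batf (450, 597 and 811 counts), Il21, Il7r and Ahr were highest in replicate 3.

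Il23r, the receptor chain specific to IL-23, had 4.62 and 2.72 FPKM in PLA, 1.00, 0.624 and 2.42 FPKM in CTS, 13.2, 7.91 and 6.66 FPKM in GelMA and 0, 1.84 and 0.450 FPKM in NC. GelMA lay above every other library, PLA lay above CTS and NC, and CTS and NC overlapped. After TMM scaling PLA replicate 1 (291 counts) lay only just below GelMA replicate 3 (415 counts), so PLA and GelMA were hardly separated. In NC the 103 counts of replicate 2 stood against 0 and 22 in the others. Il12rb1, the chain shared by the IL-23 and IL-12 receptors, was 0.779 and 0.655 FPKM in PLA, 0.0931 to 0.696 FPKM in CTS, 1.62 to 2.33 FPKM in GelMA and 0 to 0.372 FPKM in NC.

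Il17ra, the common IL-17 receptor chain, was the best expressed member in NC and CTS. It had 38.8 and 36.5 FPKM in PLA, 103, 116 and 79.6 FPKM in CTS, 53.1, 56.4 and 51.3 FPKM in GelMA and 153, 29.1 and 125 FPKM in NC. PLA lay below GelMA and CTS, and NC reached on either side of PLA, with replicate 2 below it. After TMM scaling PLA had 212 and 201 CPM and GelMA 195 to 215 CPM, so this order between PLA and GelMA was not kept; the log2 fold change between them was 0.03, and -0.51 with scaling by library size alone. Relative to Ptprc in the same library, Il17ra was 0.250 and 0.230 in PLA, 0.367 to 0.462 in CTS, 0.177 to 0.228 in GelMA and 0.506 to 0.551 in NC, where replicate 2 fell with its group. Its partner Il17rc was low and overlapped between groups, at 1.93 and 2.25 FPKM in PLA, 1.77 to 2.67 FPKM in CTS, 1.88 to 2.16 FPKM in GelMA and 0.843 to 5.87 FPKM in NC.

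Among the comparisons that did not choose the set, GelMA against NC held most of the differences. These comparisons use libraries that also served in the PLA results behind the choice, so their p-values are not fully independent of it. A gene was called at a Benjamini-Hochberg adjusted p under 0.05 in edgeR's quasi-likelihood test together with an absolute log2 fold change above 1. In GelMA against NC, 4 of the 9 members were called higher, against 5.03% of all genes tested, and 0 were called lower, against 3.21%. Il23a rose by 4.41 (SE 0.55, edgeR adjusted p = 0.00126), Il17a by 4.82 (SE 0.64, edgeR adjusted p = 0.0017) and Il17f, given as a ratio above, had an edgeR adjusted p of 0.000463. These calls held with each library left out in turn. Ebi3 rose by 1.60 (SE 0.43, edgeR adjusted p = 0.0404), a call that was lost without PLA replicate 1 or 2, CTS replicate 1 or 2, GelMA replicate 1, 2 or 3 or NC replicate 3 (edgeR adjusted p of 0.0534 to 0.157).

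The log2 fold change in GelMA against NC was 3.19 (SE 1.09) for Il23r and -1.06 (SE 0.39) for Il17ra, and neither passed (edgeR adjusted p of 0.0881 and 0.114). Without NC replicate 2 both passed, at 5.25 for Il23r (edgeR adjusted p = 0.00781) and -1.46 for Il17ra (edgeR adjusted p = 0.000236). For lower members the count was 1 at an unadjusted p under 0.05 in edgeR and 1 by DESeq2, and both were Il17ra. Scaling by library size alone called 6.74% of genes higher and 2.35% lower in this comparison. Il12b (1.56, SE 1.03), Il12a (-1.35, SE 0.64) and Il27 (0.24, SE 1.51) did not pass.

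In CTS against NC, 0 members were called by edgeR in either direction, against 0.155% of genes higher and 0.0222% lower. At an unadjusted p under 0.05, edgeR had 3 members higher (Il23a, Il17a and Il17f) and 0 lower, and DESeq2 called 2 higher (Il17a and Il17f) and 0 lower. The log2 fold change was 1.15 (SE 0.49) for Il23a and 2.22 (SE 0.60) for Il17a, with edgeR adjusted p of 0.402 and 0.175.

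In CTS against GelMA, 3 members were called lower, against 1.32% of genes, and 0 higher, against 0.416%; at an unadjusted p under 0.05 edgeR had 1 member higher (Il17ra), and DESeq2 called 0. Il23a fell by 3.26 on the log2 scale (SE 0.52, edgeR adjusted p = 0.0173), Il17a by 2.61 (SE 0.57, edgeR adjusted p = 0.0472) and Il17f by 4.68 (SE 0.58, edgeR adjusted p = 0.00764). The count was 0 without CTS replicate 1, where Il17f had an edgeR adjusted p of 0.056, and 1 without CTS replicate 2, GelMA replicate 2 or GelMA replicate 3. It was 5 without NC replicate 2, where Ebi3 and Il23r were added (edgeR adjusted p of 0.0382 and 0.043) and 3.38% of all genes were called lower. The call for Il23a was also lost without CTS replicate 2 or GelMA replicate 2 or 3 (edgeR adjusted p of 0.0686 to 0.0893), and that for Il17a was kept only without NC replicate 1 or 2.

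For PLA, from whose results the set was chosen, the same rule marked 4 members higher against NC (8.32% of genes), 2 against GelMA (4.61%) and 4 against CTS (6.42%). It marked 0 lower in each, beside 4.01%, 1.47% and 3.53% of genes; the members lower at an unadjusted p under 0.05 in edgeR were 1 against NC, which was Il17ra, and 0 against GelMA and CTS, and DESeq2 marked 0 in all 3. Without NC replicate 2, 5 members were marked higher against NC and 1 lower, with Il23r and Il17ra added, beside 11.4% and 7.58% of genes. With scaling by library size alone, 5.97%, 2.43% and 3.81% of genes were marked higher against NC, GelMA and CTS and 8.48%, 12.8% and 12.3% lower, and the counts of members stayed as given. With TMM scaling and all libraries, the members marked higher were Il23a, Ebi3, Il17a and Il17f against NC and CTS, and Il23a and Ebi3 against GelMA. Il17a was no longer marked against CTS without PLA replicate 1 or 2 or CTS replicate 1, 2 or 3, which left 3 members there.

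**Figure D3:**
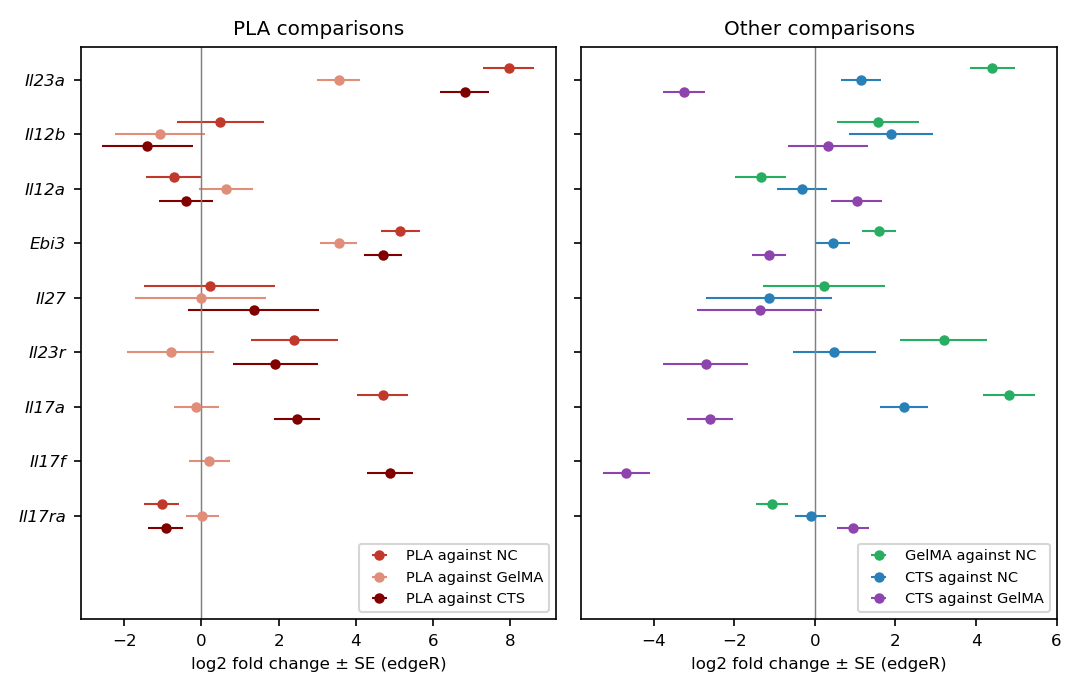
Log2 fold change with its SE from edgeR for each member, with the PLA comparisons on the left and the others on the right; Il17f is left out against NC, where it had 1 count. Il23a and Ebi3 lie at 3.55 in PLA against GelMA, where Il17a lies at -0.13 and Il17f at 0.20 (-0.34 with library size alone).

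Markers of possible source cells moved between the same groups. The summed CPM of the 11 T and NK cell markers in the tables was 284 and 353 in PLA, 152 to 310 in CTS, 788 to 864 in GelMA and 82.4 to 169 in NC, and 9 of the 11 rose in PLA against NC, where 1 (Nkg7) fell, and 8 rose in GelMA against NC; of this list Klrb1 was at 0 in 4 libraries and no other marker was at 0. Cd3e was 15.7 and 17.2 FPKM in PLA, 11.8, 4.39 and 21.5 FPKM in CTS and 7.67, 2.12 and 3.37 FPKM in NC, all far below GelMA. Per Cd3e, Il17a was 0.979 and 0.690 in PLA, 0.371, 0.513 and 0.166 in CTS, 0.412, 0.192 and 0.0840 in GelMA and 0.152, 0.195 and 0.130 in NC. Il17f per Cd3e was 0.309 and 0.225 in PLA and 0.0379 to 0.0800 in GelMA. On that ratio PLA lay above every other library for both ligands, whereas on their own levels PLA and GelMA overlapped. For Il17a this order depended on the marker. Cd2 had 1299 and 1282 counts in PLA and 3546 counts in GelMA replicate 1. Il17a had 545, 410 and 1345 counts there. Per Cd2, GelMA replicate 1 thus lay between the PLA libraries, so Il17a per T cell cannot be read from these ratios.

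The 9 dendritic cell markers summed to 1326 and 1298 CPM in PLA, 575 to 777 CPM in CTS, 908 to 1090 CPM in GelMA and 195 to 522 CPM in NC, with Batf3 at 0 in NC replicate 1. Itgax is an integrin chain used here as a dendritic cell marker. It gave 898 and 851 CPM of this sum in PLA and 250 to 403 CPM in GelMA. In CTS it gave 262 to 328 CPM and in NC 92.6 to 363 CPM. The sum without Itgax was lower in PLA than in GelMA. After TMM scaling, Irf8, Cd83, Ccr7 and Clec9a were lower in both PLA libraries than in every GelMA library. Itgax and Xcr1 were higher, and Flt3, Zbtb46 and Batf3 overlapped. Of the 9 markers, 5 were higher in PLA against NC, 6 in GelMA against NC, 2 in PLA against CTS and 0 in PLA against GelMA, where edgeR had 2 at an unadjusted p under 0.05 and DESeq2 called 1. The 10 monocyte and macrophage markers summed to 4648 and 5278 CPM in PLA, 10269.9 to 12922 CPM in CTS, 5429 to 8918 CPM in GelMA and 2608 to 10718 CPM in NC; of these Marco was at 0 in 10 libraries and Cd163 in NC replicate 1. Lyz2, a lysozyme gene, gave most of this sum, at 3079 and 3711 CPM in PLA, 9389 to 12098 CPM in CTS, 3919 to 7268 CPM in GelMA and 2306 to 10182 CPM in NC. Of the 9 markers tested, 5 were higher in PLA against NC, 3 higher in PLA against CTS, 2 lower in PLA against GelMA and 6 higher in GelMA against NC. Per Itgax, Il23a was 17.8 and 22.6 in PLA, 0.475 to 0.548 in CTS, 2.38 to 6.17 in GelMA and 0.154 to 0.434 in NC. Per Cd68, a lysosomal macrophage protein, it was 11.5 and 13.8 in PLA and at most 1.21 elsewhere. Ebi3 per Itgax was 14.9 and 18.4 in PLA, 1.42 to 2.37 in CTS, 3.22 to 4.28 in GelMA and 1.41 to 1.98 in NC. On each of these ratios PLA lay above every other library. The part of these cell types in the differences was not tested.

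The neutrophil list was mixed. Of 7 markers tested, 5 (Mpo, Elane, Camp, Fcnb and Mmp8) were lower in PLA against NC, 1 (Csf3r) was higher and Cxcr2 was not called. Mpo was 17.3 and 36.3 FPKM in PLA, against 557, 57.7 and 457 FPKM in NC. Csf3r had 22330 and 18889 counts in PLA, against 7538, 1886 and 7859 counts in NC. The B cell list rose in GelMA against NC in 6 of 6 markers and was lower in PLA against GelMA in 6 of 6. The 9 fibroblast and mesenchyme markers summed to 24529 and 37355 CPM in PLA, 22668 to 36826 CPM in CTS, 24502 to 25630 CPM in GelMA and 9298 to 28693 CPM in NC without replicate 2, which had 227164 CPM.

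**Figure D4:**
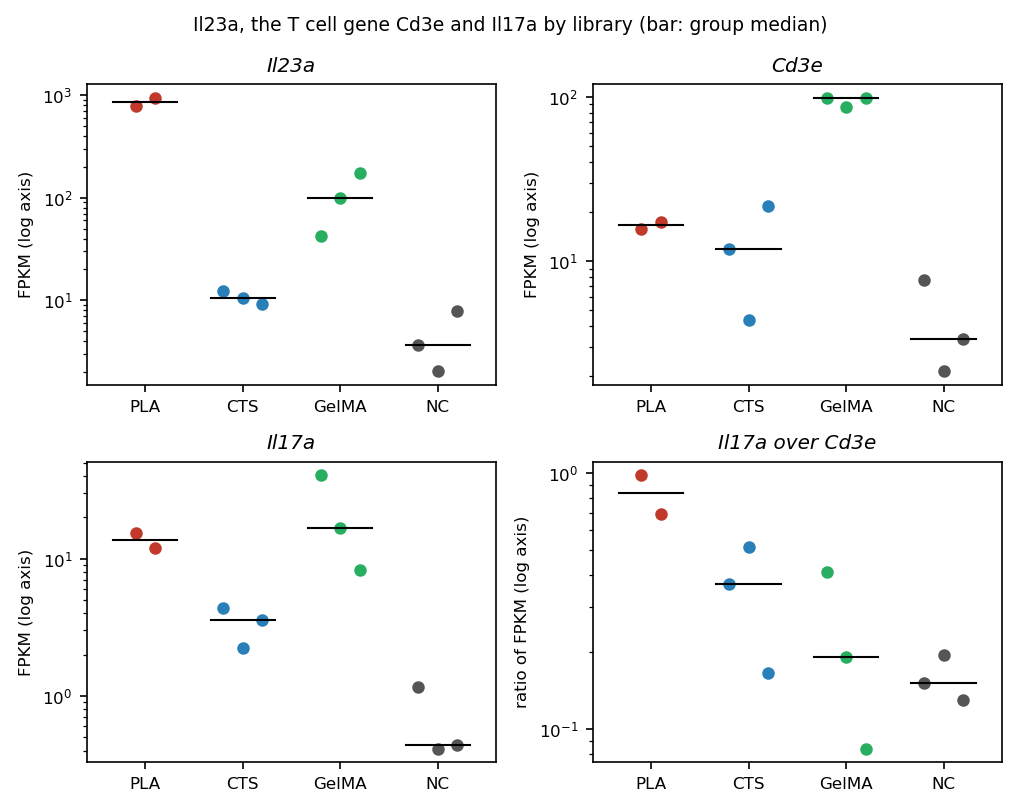
FPKM of Il23a, Cd3e and Il17a and the ratio of Il17a to Cd3e (log axes), by group, with 1 point for each library and the bar at the group median. PLA is highest for Il23a (784 and 932 FPKM) and for the ratio (0.979 and 0.690), and GelMA is highest for Cd3e (86.4 to 98.3 FPKM).

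Of the 69 further genes listed for this pathway, 66 were in the tables and 63 were tested. They were called higher or lower in 24 and 0 cases in PLA against NC, 11 and 6 in PLA against GelMA, 18 and 0 in PLA against CTS, 23 and 1 in GelMA against NC, 0 and 0 in CTS against NC and 0 and 11 in CTS against GelMA. Of all genes tested, 8.32% and 4.01% were called higher and lower in PLA against NC. These shares were 4.61% and 1.47% in PLA against GelMA and 6.42% and 3.53% in PLA against CTS. They were 5.03% and 3.21% in GelMA against NC, 0.155% and 0.0222% in CTS against NC and 0.416% and 1.32% in CTS against GelMA. The same shares stand beside the counts of each list below and of the cell markers above. The median log2 fold change of the pathway genes in PLA against NC was 1.04, and over all genes tested it was -0.11. Where edgeR called 0 in a direction, the number at an unadjusted p under 0.05 was 2 lower in PLA against NC, 3 lower in PLA against CTS, 17 higher and 3 lower in CTS against NC and 3 higher in CTS against GelMA, and DESeq2 called 2, 2, 8, 0 and 3. The PLA against GelMA counts were 7 higher without PLA replicate 2 and 17 higher without NC replicate 2, and 2 lower without PLA replicate 1 and 3 lower without PLA replicate 2 or GelMA replicate 3. Higher calls in GelMA against NC were 15 and 14 without GelMA replicates 2 and 3. Lower calls in CTS against GelMA were 0 without CTS replicate 1, 3 without CTS replicate 2, GelMA replicate 2 or GelMA replicate 3, 5 without GelMA replicate 1 and 20 without NC replicate 2. Without NC replicate 2 there were also 3 lower calls in PLA against NC, 2 lower in PLA against CTS, 4 lower in GelMA against NC, 3 higher in CTS against NC and 3 higher in CTS against GelMA. Without NC replicate 1 there was 1 lower in PLA against CTS and 3 lower in GelMA against NC, and 3 were higher in CTS against NC without CTS replicate 2. The 1 lower call in GelMA against NC was lost without PLA replicate 1 or 2, CTS replicate 1, any GelMA library or NC replicate 3. Several of these genes were picked by the study from these libraries, so the counts are not independent evidence of a direction. Outside the receptor partners, the genes named below were mostly taken for their calls in PLA against NC. Their fold changes in the PLA comparisons follow from that choice, so they are a description, carry no test and are given without p-values.

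Of the 4 receptor partners, 1 rose in PLA against NC and 2 rose in GelMA against NC. Il12rb2, the signaling chain of the IL-12 receptor, was 1.64 and 1.74 FPKM in PLA, 1.45 to 2.73 FPKM in CTS, 8.24 to 11.7 FPKM in GelMA and 0.696 to 1.28 FPKM in NC. It rose by 1.13 (SE 0.28) in PLA against NC and by 3.10 (SE 0.28) in GelMA against NC, and fell by 1.97 (SE 0.31) in PLA against GelMA (edgeR adjusted p of 0.0236, 0.00045 and 0.00392). Il27ra, the IL-27 receptor, rose by 3.42 (SE 0.87) in GelMA against NC (edgeR adjusted p = 0.0349). Il12rb1 was 2.45 (SE 1.05) in PLA against NC and 3.45 (SE 1.01) in GelMA against NC and did not pass (edgeR adjusted p of 0.146 and 0.0568), and Il6st, the gp130 chain, was 40.8 and 35.3 FPKM in PLA and 18.9 to 78.1 FPKM in NC, a log2 fold change of 0.00 (SE 0.57).

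Of the 8 JAK-STAT genes, Socs3, a feedback inhibitor, was 614 and 588 FPKM in PLA, 98.3 to 199 FPKM in CTS, 236 to 283 FPKM in GelMA and 104 to 216 FPKM in NC. It was higher in PLA by 2.14 (SE 0.41) against NC, 1.71 (SE 0.40) against GelMA and 2.65 (SE 0.41) against CTS. Stat4, the transcription factor of IL-12 signaling, was 4.91 and 6.13 FPKM in PLA, 18.9 to 22.3 FPKM in GelMA and 1.55 to 2.73 FPKM in NC. It rose in PLA against NC by 1.65 (SE 0.28) and fell in PLA against GelMA by 1.40 (SE 0.30).

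Of the 12 IL-17 adaptors and regulators, 5 were higher in PLA against each of NC, GelMA and CTS, and the same genes made up each count: Tnfaip3, Nfkbiz, Zc3h12a, Cebpb and Traf6. Tnfaip3, the deubiquitinase A20 that restrains NF-κB, was 523 and 548 FPKM in PLA, 120 to 163 FPKM in CTS, 222 to 283 FPKM in GelMA and 65.4 to 95.2 FPKM in NC. Nfkbiz, the IκBζ cofactor of IL-17 target genes, was 803 and 824 FPKM in PLA, 246 to 261 FPKM in CTS, 250 to 347 FPKM in GelMA and 158 to 227 FPKM in NC. Against NC the log2 fold changes in PLA were 3.01 (SE 0.20) for Tnfaip3 and 2.34 (SE 0.19) for Nfkbiz. In GelMA against NC, 1 of the 12 rose, Tnfaip3 by 1.36 (SE 0.18, edgeR adjusted p = 0.00173). These regulators answer to IL-17 and to other NF-κB stimuli, and what lay behind their levels was not tested. Traf3ip2, the Act1 adaptor of IL-17 receptors, was 1.01 and 2.15 FPKM in PLA and 0.711 to 5.44 FPKM in NC and did not pass.

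Of the 17 IL-17 target genes tested, 8 were higher in PLA against NC, 4 against GelMA and 8 against CTS. In GelMA against NC 6 were higher and 1 lower, which was Mmp9, and in CTS against GelMA 3 were lower. S100a8 and S100a9 went the other way in PLA, although edgeR called neither. Both were lower against NC and CTS at an unadjusted p under 0.05 in edgeR, and DESeq2 called both lower there. S100a8 had 70529 and 72096 counts in PLA, against 589605, 71623 and 450624 counts in NC. Cxcl6, a neutrophil chemokine, was 40.1 and 41.0 FPKM in PLA, 0.711 to 2.58 FPKM in CTS, 28.8 to 32.5 FPKM in GelMA and 0 to 0.880 FPKM in NC. Mmp13, the interstitial collagenase, was 121 and 93.2 FPKM in PLA, 3.50 to 14.3 FPKM in CTS, 28.3 to 41.0 FPKM in GelMA and 0.628 to 6.60 FPKM in NC. In PLA against NC they rose by 6.95 (SE 1.00) and 5.41 (SE 0.80), and in PLA against GelMA neither passed, at 0.97 (SE 0.80) and 2.18 (SE 0.71). The targets higher in PLA against GelMA were Ccl20, Csf3, Cxcl2 and Cxcl3.

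Of the 9 type 17 lymphocyte genes tested, 5 rose in PLA against NC and 5 in GelMA against NC, and both counts comprised Batf, Ccr6, Il21, Il22 and Il7r. Il22 had 67 and 44 counts in PLA, 2, 0 and 18 counts in CTS, 122, 94 and 123 counts in GelMA and 0 in each NC library. Against a floor of 3 counts over NC, Il22 was at least 44.8-fold higher in PLA and at least 93.7-fold higher in GelMA. Il21 had 24 and 18 counts in PLA, 23, 37 and 75 counts in GelMA and 0 in NC, and was at least 16.97-fold higher in PLA and at least 37.3-fold higher in GelMA. Ccr6, the receptor for Ccl20, was 2.50 and 1.84 FPKM in PLA, 8.93 to 15.8 FPKM in GelMA and 0.125 to 0.607 FPKM in NC. Its 2269, 1434 and 1350 counts in GelMA ran in the order of the B cell marker Ms4a1 (2864, 2110 and 1863 counts). Which cells expressed Ccr6 was not tested.

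Type 1 genes, which IL-12 favours, were called higher in 3 of 8 cases in PLA against NC and 7 of 8 in GelMA against NC, and lower in 3 of 8 in PLA against GelMA. Prf1, the pore protein of cytotoxic lymphocytes, was 21.6 and 11.4 FPKM in PLA, 24.3 to 36.1 FPKM in GelMA and 2.29 to 3.07 FPKM in NC. Cxcr3, a chemokine receptor of type 1 lymphocytes, was 4.32 and 2.91 FPKM in PLA, 17.7 to 22.6 FPKM in GelMA and 0.459 to 1.18 FPKM in NC. It fell by 2.00 (SE 0.54) in PLA against GelMA. Il17b and Il17c were not tested, and none of the 5 other IL-17 ligands and receptors that were (Il17d, Il17rb, Il17rc, Il17rd and Il17re) was called by edgeR in any of the 6 comparisons; Il17d in GelMA against NC was the 1 case at an unadjusted p under 0.05, and DESeq2 called that gene lower there.

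**Figure D5:**
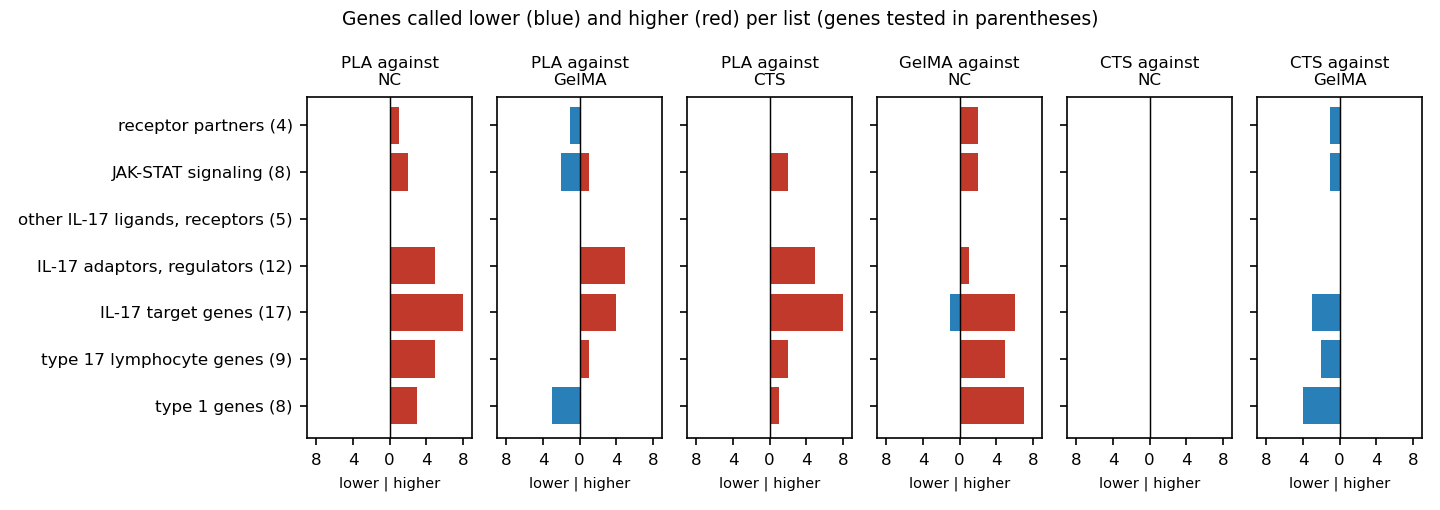
Number of genes called lower (left of 0) and higher (right of 0) in each of 7 pathway lists, for each comparison, with the number tested in parentheses. IL-17 adaptors and regulators have 5 of 12 genes higher in all 3 PLA comparisons and 1 of 12 in GelMA against NC, while type 1 genes have 7 of 8 higher in GelMA against NC.

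The genes most like Il23a over the 11 libraries, by Pearson r of log2 CPM, were Dusp16 (0.992), Il1rn (0.991), Saal1 (0.989), Resf1 (0.986) and Slc7a2 (0.985). Those most like Ebi3 were Mtmr7 (0.997), Acod1 (0.995), Tnfrsf1b (0.994), Plek (0.994) and Cflar (0.993). The points of a group share their scaffold, so these values describe likeness and carry no test. Il1rn, the antagonist of the IL-1 receptor, was 4117 and 4020 FPKM in PLA, 599, 1027 and 1613 FPKM in GelMA and 187, 65.7 and 241 FPKM in NC. On the chromosome Il23a lies between Stat2 and Pan2, and Ebi3 lies beside Yju2. Stat2 and Pan2 were 0.77 (SE 0.23) and 0.61 (SE 0.16) in PLA against NC, under the fold threshold, and Yju2, a splicing factor, rose by 1.61 (SE 0.39, edgeR adjusted p = 0.0198), against 7.96 for Il23a and 5.15 for Ebi3. Whether the counting used strand was not stated.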

How the data were processed

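RNA-seq was measured in 11 libraries, all mapped to a group by their labels. Per the labels, the authors' processing notes name fastp, HISAT2, HTSeq, DESeq and the rat assembly mRatBN7.2, with no versions. The authors deposited gene counts and FPKM; FPKM equalled count over gene length and library total in all 21900 genes with at least 2 values above 0 (relative tolerance 0.001), so it holds no composition factor.

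Counts were fitted in R 4.3.3 with edgeR 4.0.16 (filterByExpr with a minimum count of 10, TMM, robust quasi-likelihood, all 11 libraries, group as the only term). The 6 comparisons were adjusted over 18049 genes by Benjamini-Hochberg. The SE of a log2 fold change is its size over the square root of F. Levels are FPKM or CPM after TMM. A count of 0 was set at 3 counts for ratios, per library for subunit pairs and over the group for bounds; these and the exact 95% intervals (SciPy 1.17.1) cover counting error only. Alternatives were RLE factors, scaling by library size alone, dropping the low-count filter or the fold threshold, edgeR on 2 groups, DESeq2 1.42.0, the replicate number as a block, each library left out in turn and, for subunit ratios, CPM per length or NC without replicate 2. The steps were tested on simulated data. Figures used matplotlib 3.10.9.

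The members and gene lists were chosen with earlier results of these data known. The rule for named genes took all members, the receptor partners and Il17rc, up to 2 genes per direction called in PLA against NC in each other pathway list, Il22 and Ccr6, chromosome neighbours, the 5 genes most like Il23a and Ebi3, Ptprc and up to 2 markers of each cell type. Other genes were named after their values were seen, and 1 gene of the rule is not reported here. Chromosome neighbours and start regions come from RefSeq GRCr8.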

Additional observations from a re-analysis of the deposited data

How the results depend on the processing

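Scaling by library size alone moved the median log2 fold change of all genes to -0.43, -0.58 and -0.51 in PLA against NC, GelMA and CTS, to 0.16 and 0.12 in GelMA and CTS against NC, and kept it within 0.1 in CTS against GelMA.

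Without the filter, with RLE factors and without the fold threshold, every count of members and of pathway genes stayed within 1.5 times of the value given. With library size alone, the pathway counts were 1 lower in PLA against NC, 2 lower in PLA against CTS, 0 lower in GelMA against NC and 1 higher in CTS against NC, and in CTS against GelMA 0.216% of all genes were called higher and 1.44% lower. EdgeR on the 2 groups compared gave pathway counts of 11 higher in PLA against NC, 17 higher and 10 lower in PLA against GelMA, 2 lower in PLA against CTS, 15 higher and 0 lower in GelMA against NC, and 4 higher and 23 lower in CTS against GelMA. DESeq2 gave 2 lower in PLA against NC, 2 lower in PLA against CTS, 6 lower in GelMA against NC, 8 higher in CTS against NC, and 3 higher and 17 lower in CTS against GelMA, and among members 1 lower in GelMA against NC and 2 higher in CTS against NC. Ebi3 in GelMA against NC was not called without the filter (edgeR adjusted p = 0.0541) or in edgeR on 2 groups (0.123). The causes were not tested.

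With each library left out in turn, members called ranged from 0 to 1 lower in PLA against NC, 3 to 5 higher and 0 to 1 lower in GelMA against NC and 0 to 5 lower in CTS against GelMA. Pathway counts ranged from 0 to 3 lower in PLA against NC, 7 to 17 higher and 2 to 8 lower in PLA against GelMA, 0 to 2 lower in PLA against CTS, 14 to 27 higher and 0 to 4 lower in GelMA against NC, 0 to 3 higher in CTS against NC, and 0 to 3 higher and 0 to 20 lower in CTS against GelMA. Uncalled member values that changed sign in the comparisons without PLA were Il27 in GelMA against NC (-1.06 to 0.85), Il12a (-0.70 to 0.0524), Il17ra (-0.50 to 0.28) and Il23r (-0.28 to 2.54) in CTS against NC, and Il12b in CTS against GelMA (-0.11 to 1.29). In the PLA comparisons they were Il12b (-0.09 to 0.93) and Il27 (-0.35 to 0.84) against NC, Il12a against CTS (-1.24 to 0.13), and against GelMA Il12a (-0.21 to 1.16), Il27 (-0.52 to 1.21), Il17a (-0.54 to 0.64), Il17f (-0.04 to 0.50) and Il17ra (-0.02 to 0.06). Counts of at most 23 limit Il27, and those of 0 to 1 limit Il17f in NC.

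The numbers shared by libraries of different groups did not pair them: the 15 same-numbered pairs had correlations of deviations of -0.0895 to 0.0852, with 0 over 0.1. With the replicate block, the pathway counts were 3 lower in PLA against GelMA and 0 lower in GelMA against NC, Ebi3 in GelMA against NC was not called (edgeR adjusted p = 0.0728), and no other call of a member changed.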
